A study of Mus musculus with 12 samples.

Results

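Neuronal cytoskeleton genes were described in embryonic mouse brain through 10 genes picked by symbol: the tubulins Tuba1a, Tubb2b and Tubb3, the microtubule-associated proteins Dcx, Map1b, Map2 and Mapt, the tubulin-binding stathmin Stmn2, and the neurofilament subunits Nefl and Nefm. They are 10 of the 40690 genes listed in the deposited gene table, and they hold 52 of the 84548 transcripts in the deposited transcript table. All 10 genes and 42 of the 52 transcripts passed the filter on low counts, and 3 of the 52 transcripts are listed at 0 in every library. The samples were whole brains of C57BL/6J embryos at embryonic day 14.5 (E14.5), 1 embryo per library, read as polyadenylated RNA. LC1_KO holds 3 female embryos (7, 22 and 71) lacking LC1, a conserved non-coding element near the transcription factor gene Pou3f2, and LC1_WT 3 female wild types (6, 26 and 73). RKI_homozygous holds embryos A1, A10 and A18, homozygous for a knock-in of the human variant rs77910749, and RKI_WT the wild types A2, A9 and A16 of that line, each with 1 female and 2 males. Mutants and wild types were matched by sex and litter per the labels, which do not name the litters or say how many founders each line has. The LC1 and RKI lines were separate experiments, so line, litter and any batch between them cannot be told apart.

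Microtubules are built from dimers of an alpha- and a beta-tubulin, and young neurons use a particular set of tubulin genes while they migrate and grow axons. Doublecortin, MAP1B, MAP2 and tau bind along microtubules and stabilise them, stathmins bind free tubulin, and neurofilaments give axons their calibre as they mature. MAP2 and tau change isoform between embryo and adult, which is why their transcripts are given beside the gene levels. A whole brain holds neurons, dividing progenitors and other cells, and in such bulk samples fewer neurons and less RNA per neuron cannot be told apart.

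Map2 (ENSMUSG00000015222) lies at chr1:66175273-66442583 and Stmn2 (ENSMUSG00000027500) at chr3:8509360-8561606, both on the plus strand of GRCm38. Tubb3 (ENSMUSG00000062380) at chr8:123411424-123422015 and Mapt (ENSMUSG00000018411) at chr11:104231390-104332090 are on the plus strand too. On the minus strand are Tubb2b (ENSMUSG00000045136) at chr13:34126748-34130466, Map1b (ENSMUSG00000052727) at chr13:99421446-99516540, Tuba1a (ENSMUSG00000072235) at chr15:98949837-98953703 and Dcx (ENSMUSG00000031285) at chrX:143855842-143933311. Nefl (ENSMUSG00000022055, plus strand) at chr14:68083863-68089095 lies within the span of Nefm (ENSMUSG00000022054, minus strand) at chr14:68082590-68124846.

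The libraries held 18192984 to 26566769 gene counts, and the 10 genes took 1.71% to 1.97% of them. The 10 neuron markers listed for this purpose were all measured, and none was at 0 in every library. In what follows 1 library of the LC1 line and 2 of the RKI line stood apart. In LC1_WT 6 the deviation of a gene from its mean over libraries fell with the length of the gene model (Spearman rho of -0.45 across 10321 genes, a description of 1 library), against rho of -0.09 to 0.32 in the other libraries. RKI_WT A16 had the lowest summed neuron markers of the 12 libraries at 2578 CPM (counts scaled to library size), and the highest summed markers of radial glia and dividing progenitors at 2188 CPM. RKI_WT A9 was at the other end, with the highest summed neuron markers at 3167 CPM and the lowest progenitor sum at 1607 CPM.

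The 3 tubulin genes stood at the top of the list. Levels are the authors' RPKM, read counts scaled by the length of the gene model and by the library total, so that genes of different length can be set side by side. Tuba1a, the main alpha-tubulin gene of migrating neurons, had 2005, 2028 and 2111 RPKM in LC1_KO brains (embryos 7, 22 and 71) and 2363, 1980 and 2005 RPKM in LC1_WT brains (6, 26 and 73). It had 1986, 2074 and 2103 RPKM in RKI_homozygous brains (A1, A10 and A18) and 1883, 2156 and 1972 RPKM in RKI_WT brains (A2, A9 and A16). The groups overlapped in both lines, and the highest library was LC1_WT 6.

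Tubb3, the beta-tubulin used as a marker of newborn neurons, had 1458, 1441 and 1470 RPKM in LC1_KO brains, against 1665, 1410.2 and 1382 RPKM in LC1_WT brains, in the same order of embryos. It had 1381, 1514 and 1497 RPKM in RKI_homozygous brains and 1305, 1587 and 1307 RPKM in RKI_WT brains. The 3 LC1_KO libraries lay within the range of the LC1_WT libraries, as did the RKI_homozygous libraries within that of RKI_WT. Tubb2b, a beta-tubulin of migrating neurons and radial glia, had 976, 910.5 and 976 RPKM in LC1_KO brains and 1159, 956 and 967 RPKM in LC1_WT brains. In RKI_homozygous brains it had 972, 1013 and 1016 RPKM, against 889, 1020.4 and 905 RPKM in RKI_WT brains. Again LC1_WT 6 was the highest of the 12.

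Tuba1a exceeded Tubb3 and Tubb3 exceeded Tubb2b in 12 of 12 libraries, with no overlap of their ranges. That order holds for the gene table alone. In the transcript table the summed RPKM was 7732 ± 382 for Tuba1a, 2045 ± 144 for Tubb2b and 997 ± 57.6 for Tubb3 (mean ± SD, n = 12), and Tubb2b exceeded Tubb3 in all 12 libraries. Among these tubulins, the tables differed most for Tuba1a and Tubb2b, which have near-identical copies. The summed transcript estimate was 4.36 ± 0.127 times the gene count for Tuba1a and 2.85 ± 0.0583 times for Tubb2b (SD, n = 12), against 0.939 ± 0.0283 for Tubb3. Over 11909 genes with a mean of 100 or more counts, the median of this ratio was 0.971, and its 5th and 95th percentiles were 0.506 and 2.04.

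The coding sequences show how little separates these genes. That of Tuba1a matches Tuba1b at 1330 of 1353 bases (98.3%) and that of Tubb2b matches Tubb2a at 1288 of 1335 (96.5%), while Tubb3 matches Tubb2b at 1126 of 1350 aligned bases (83.4%). The last 60 coding bases of Tubb2b and Tubb2a, which encode the acidic tail where beta-tubulins usually differ most, are printed with the bases that differ between them in capitals, read from GENCODE M21 transcripts (GRCm38, minus strand). They lie at chr13:34127474-34127533 and chr13:34074471-34074530.
Tubb2b: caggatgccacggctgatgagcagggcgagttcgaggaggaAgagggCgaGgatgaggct
Tubb2a: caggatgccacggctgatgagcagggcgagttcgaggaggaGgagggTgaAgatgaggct
The ends of Tubb2b and Tubb2a share 57 of 60 bases. Of all 50-base windows of the main Tuba1a transcript, 72.9% also occur in transcripts of other genes, as do 39.3% of those of Tubb2b and none of those of Tubb3. Tuba1b and Tubb2a differed between tables in the same direction and by more. Tuba1b had a mean gene count of 1136 and a mean transcript estimate of 25543, a ratio of 22.5 ± 1.4, and Tubb2a 7210 and 31702, a ratio of 4.4 ± 0.153 (SD, n = 12). Tuba1c, which shares the most windows with Tuba1a, had 173 and 475, a ratio of 2.74 ± 0.143, below that of Tuba1a. Because the tables differ, the levels of Tuba1a and Tubb2b, and their distance from these copies, are uncertain. Whether shared sequence has a part in the gap between tables was not tested.

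**Figure D1:**
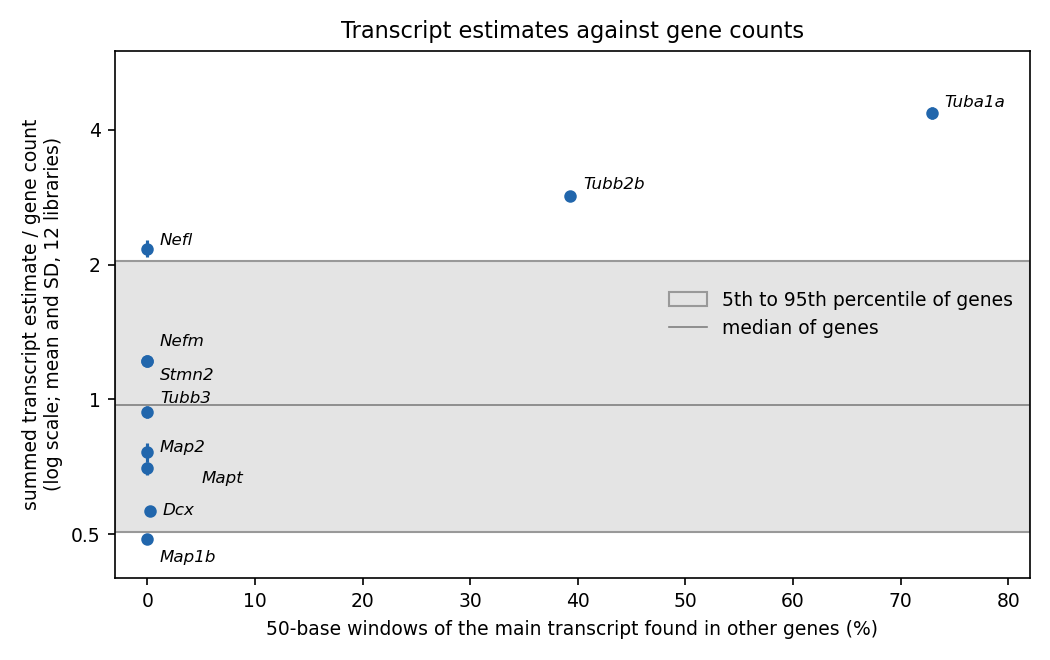
Ratio of the summed transcript estimate to the gene count (y axis, log scale, mean and SD over 12 libraries) against the share of 50-base windows of the main transcript that also occur in other genes (x axis, percent), for the 10 genes. Tuba1a (4.36) and Tubb2b (2.85) have both the highest ratios and the largest shared shares; Nefl (2.17), with no shared window, lies just above the shaded range from the 5th to the 95th percentile of 11909 genes, and Map1b (0.489) just below it.

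Among the proteins that bind microtubules, Map1b stood highest by gene RPKM. Map1b, an early axonal microtubule-associated protein, had 403, 368 and 389.9 RPKM in LC1_KO brains and 345, 388 and 391 RPKM in LC1_WT brains. It had 376, 369 and 434 RPKM in RKI_homozygous brains and 406, 386 and 369 RPKM in RKI_WT brains. Its lowest library was LC1_WT 6, the library in which the tubulins were highest.

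Dcx, the X-linked doublecortin gene needed for neuronal migration, had 123, 131 and 119.8 RPKM in LC1_KO brains, against 108, 127 and 119 RPKM in LC1_WT brains. In RKI_homozygous brains it had 129, 119 and 132 RPKM and in RKI_WT brains 128, 123 and 114 RPKM. Dcx too was lowest in LC1_WT 6, and its groups overlapped. Map2, the dendritic microtubule-associated protein, was the steadiest of the 10, with 115, 114 and 114 RPKM in LC1_KO brains and 111, 119 and 114 RPKM in LC1_WT brains. It had 122, 117 and 118 RPKM in RKI_homozygous brains and 119, 115 and 108 RPKM in RKI_WT brains. Its coefficient of variation over the 12 libraries was 3.17%, against 5.88% to 9.13% for the other 9 genes.

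Mapt, which encodes tau, the axonal counterpart of MAP2, was the most variable. It had 202, 217 and 203 RPKM in LC1_KO brains and 234, 214 and 205 RPKM in LC1_WT brains. It had 235, 218 and 235 RPKM in RKI_homozygous brains, against 218, 251 and 177 RPKM in RKI_WT brains, so that RKI_WT held both the highest and the lowest library of the 12. Stmn2, a growth-cone stathmin that is used as a marker of axon growth, had 339, 365 and 349 RPKM in LC1_KO brains and 407, 366 and 347 RPKM in LC1_WT brains. In RKI_homozygous brains it had 392, 356 and 379 RPKM, and in RKI_WT brains 356, 381 and 326 RPKM. Its lowest library, RKI_WT A16, was also the lowest for Mapt.

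The neurofilament subunits were far lower. Nefm, the medium subunit, had 19.7, 17.8 and 17.6 RPKM in LC1_KO brains and 19.5, 18.8 and 18.5 RPKM in LC1_WT brains. It had 18.5, 17.8 and 20.8 RPKM in RKI_homozygous brains and 16.6, 20.2 and 17.5 RPKM in RKI_WT brains. Nefl, the light subunit on which the others assemble, had 17.6, 16.5 and 17 RPKM in LC1_KO brains, against 21, 18 and 17.8 RPKM in LC1_WT brains. All 3 LC1_KO values of Nefl were below all 3 LC1_WT values on this scale, as was the case in either direction for 7.12% of all genes tested, and by the TMM-scaled CPM used for testing they overlapped. It had 18.7, 16.6 and 18.4 RPKM in RKI_homozygous brains and 16.8, 18.3 and 15.1 RPKM in RKI_WT brains, which overlapped, while 5.71% of all genes tested did not overlap in RKI.

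In the order of mean gene RPKM, the neighbours Map1b (385 ± 22.8) and Stmn2 (364 ± 23.1), Dcx (123 ± 7.21) and Map2 (116 ± 3.67), and Nefm (18.6 ± 1.25) and Nefl (17.6 ± 1.46; SD, n = 12 each) overlapped in range. Map1b exceeded Stmn2 in 10 of 12 libraries, Dcx exceeded Map2 in 11 and Nefm exceeded Nefl in 9. The other neighbours did not overlap. Summed transcript RPKM, which scales each isoform by its own length, gave other places to several of them. The gene model implied for Map2 by its counts and RPKM is 16470 bases, against 5195 bases for its main transcript, and Map2 had 420.3 summed transcript RPKM against 137 for Map1b and 132 for Dcx. Short partial models held much of the Map2 sum: on average 22.2% for Map2-011 (546 bases), 13.6% for Map2-020 (696) and 12.6% for Map2-018 (722). For Map1b the implied gene model is 11867 bases and the transcript 11808. Its summed transcript estimate was 0.489 ± 0.00999 times its gene count (SD, n = 12). Ina, the intermediate filament alpha-internexin of young neurons, had 287 ± 16.6 RPKM in the gene table (SD, n = 12), while the heavy neurofilament gene Nefh had 0.975 ± 0.116 and peripherin (Prph) 0.644 ± 0.105.

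**Figure D2:**
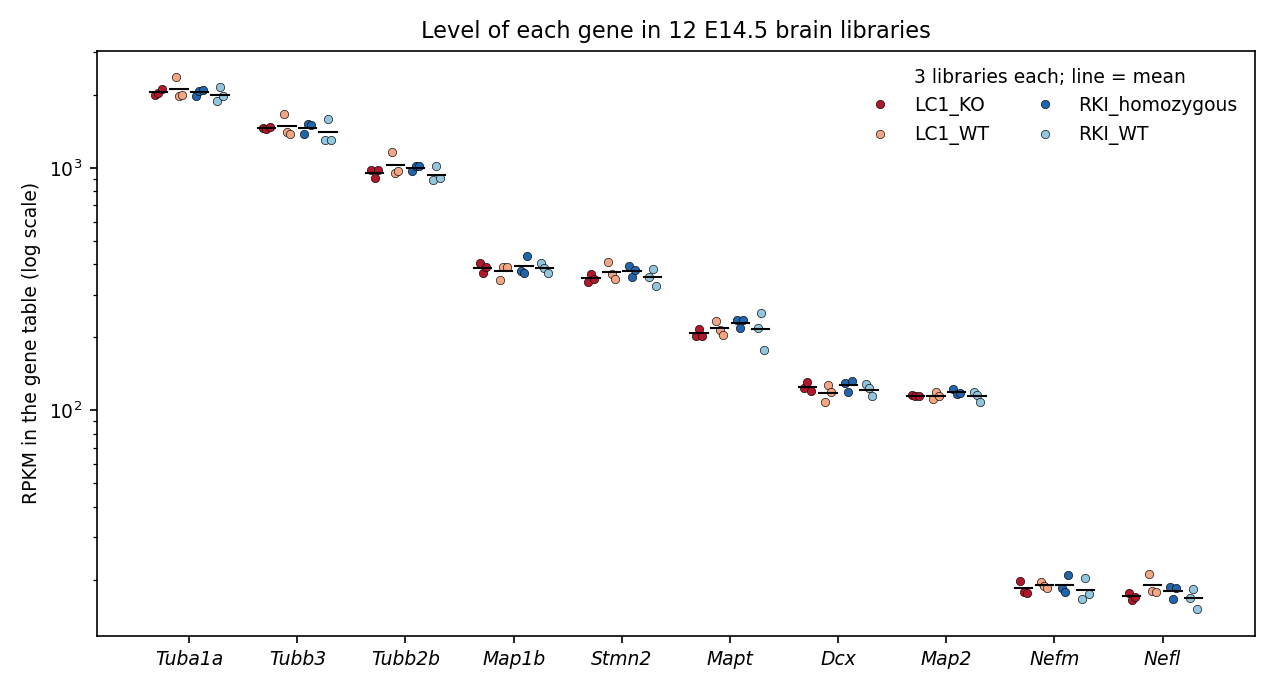
Level of each gene in RPKM (y axis, log scale) in the 12 libraries, with 3 points and a line for the mean per group. The genes run from Tuba1a (mean 2056) to Nefl (mean 17.6), and within each gene the 4 groups lie close together.

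The transcript table splits 5 of the 10 genes. Tubb3, Tubb2b, Map1b, Nefl and Stmn2 are listed with 1 transcript each, so no isoform of theirs can be read. Map2 is listed with 24 transcripts, Mapt with 12, Dcx with 6, Tuba1a with 3 and Nefm with 2. The models were matched by identifier to GENCODE M21, which holds 50 of the 52.

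More of the Map2 estimate lay in short embryonic forms than in the long form. The model of high-molecular-weight MAP2 carries a coding exon of 3741 bases that the short forms lack, and a 93-base exon adds a further microtubule-binding repeat. Map2-201, a short model of 467 codons without either exon, held 45.7% ± 2.12 of the estimated counts of the gene (SD, n = 12). Map2-001, the long model of 1828 codons, held 24.1% ± 1.11, and Map2-007, the short model with the repeat exon (498 codons), 11% ± 1.3. The other 21 models held 19.2% together. As a share of RPKM, Map2-201 had 22.2% ± 2.46, level with the 546-base partial model Map2-011 at 22.2% ± 2.23, and Map2-001 had 9.73% ± 0.88 (SD, n = 12).

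The short forms without the repeat exon, 4 models summed, took 46.5%, 46.1% and 47% in LC1_KO brains, against 50%, 47.1% and 49.2% in LC1_WT brains. They took 46.9%, 45.4% and 45.6% in RKI_homozygous brains, against 43.6%, 44% and 44.2% in RKI_WT brains. In each line the 2 groups did not overlap, in opposite directions. These sums were not tested, and of all 25161 transcripts tested for usage with at least 5% of their gene, the shares of the groups did not overlap for 8.49% in LC1 and 8.34% in RKI. Map2-201 alone took 46.4%, 43.7% and 46.5% in LC1_KO brains and 49.5%, 45.7% and 49.1% in LC1_WT brains, which overlap, so the separation in LC1 rests on adding the 3 small models. It took 46.5%, 45.4% and 44.9% in RKI_homozygous brains and 42.8%, 44% and 43.4% in RKI_WT brains, without overlap. The share of Map2-201 alone, tested with edgeR's diffSpliceDGE, gave a log2 difference of -0.07 in LC1 (adjusted p = 1, unadjusted p = 0.669) and 0.07 in RKI (adjusted p = 1, unadjusted p = 0.676). Its level, by edgeR's quasi-likelihood test, had log2 fold changes of -0.06 in LC1 (unadjusted p = 0.427) and 0.14 in RKI (unadjusted p = 0.0783). In the authors' deposited comparisons, as mutant minus wild type, these were -0.07 (unadjusted p = 0.389) and 0.14 (unadjusted p = 0.0101). Neither passed after adjustment. The long form took 21.9%, 23.7% and 24.4% in LC1_KO brains and 25.2%, 25.3% and 22.7% in LC1_WT brains. It took 24.2%, 23.6% and 24.1% in RKI_homozygous brains and 25.8%, 24.7% and 23.7% in RKI_WT brains, with overlap in both lines. Among the short coding models, those with the repeat exon made up 19.2% ± 1.97 (SD, n = 12).

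Tau has a repeat exon of the same length, and in both proteins its presence or absence defines the 4-repeat and 3-repeat forms. All 5 full-length Mapt models in the table carry theirs, whereas 2 of the 7 full-length Map2 models do. The balance of 3-repeat and 4-repeat tau, known from other work to favour 3 repeats in the embryo, therefore cannot be read from the transcript table.

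Mapt was otherwise nearly uniform. Mapt-001, a model of 372 codons with neither of the alternative N-terminal exons, held 87.3%, 88.6% and 88.6% of the estimated counts in LC1_KO brains and 88.9%, 87.6% and 86.7% in LC1_WT brains. It held 88.5%, 88.2% and 89.3% in RKI_homozygous brains and 87.3%, 86.9% and 89.1% in RKI_WT brains. The 3 models with both N-terminal exons, which mark adult tau, held 0.165% ± 0.063 together (SD, n = 12). As a share of RPKM, Mapt-001 stayed first with 45.7% ± 2.55, followed by the 418-base partial model Mapt-012 with 26.8% ± 2.85 (SD, n = 12).

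Dcx was mostly in the model Dcx-001 of 366 codons, which held 81.3% ± 2.65 of the estimated counts (SD, n = 12). Dcx-006, of 360 codons, held 12.6% ± 2.11. They differ in their coding sequence by 2 short extensions at exon ends, of 15 and 3 bases. These are in capitals in the last 45 bases of the exons of Dcx-001, at chrX:143875755-143875799 and chrX:143870607-143870651 (GRCm38, minus strand).
First exon end: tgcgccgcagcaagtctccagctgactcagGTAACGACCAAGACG
Second exon end: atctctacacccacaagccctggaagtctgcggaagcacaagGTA
Dcx-006 took 15.2%, 11.6% and 14.4% in LC1_KO brains and 7.72%, 12.5% and 14.4% in LC1_WT brains, with the lowest value in LC1_WT 6. It took 11.1%, 13.6% and 13.3% in RKI_homozygous brains and 11.6%, 14.8% and 11.4% in RKI_WT brains. The groups overlapped. The models also differ in length, 9074 bases for Dcx-001 and 1333 for Dcx-006, so that as a share of RPKM Dcx-006 came first with 46.1% ± 4.91 and Dcx-001 second with 43.6% ± 5.06 (SD, n = 12). Which Dcx model is dominant thus depends on whether estimated counts or length-scaled values are taken.

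Nefm was split almost evenly. Nefm-001, the full model of 848 codons, held 54.8%, 50.6% and 53.3% in LC1_KO brains and 53.6%, 55.3% and 52.8% in LC1_WT brains. It held 58.5%, 52.5% and 60.1% in RKI_homozygous brains and 52.8%, 52.7% and 55.8% in RKI_WT brains. The rest went to Nefm-002 (470 codons). Nefm-002 runs into Nefl, the neighbouring gene on the other strand of chromosome 14: 1108 of its 3680 exonic bases (30.1%) lie inside Nefl exons, and they make up 32.8% of the exonic bases of Nefl-001, whereas Nefm-001 has 0 such bases. Its last coding exon, shown because all 144 of its bases lie inside a Nefl exon, is at chr14:68084827-68084970 (GRCm38, minus strand), with capitals for the bases inside Nefl.
Nefm-002: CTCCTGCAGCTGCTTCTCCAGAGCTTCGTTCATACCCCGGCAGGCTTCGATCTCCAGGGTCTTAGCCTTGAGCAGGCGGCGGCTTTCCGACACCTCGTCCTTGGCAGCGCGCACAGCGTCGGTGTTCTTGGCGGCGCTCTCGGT
The sources used here do not say whether counting used strand, and without strand reads of Nefl and of this end of Nefm-002 cannot be told apart. The summed transcript estimate of Nefl was 2.17 ± 0.0956 times its gene count and that of Nefm 1.22 ± 0.0327 times (SD, n = 12). The share of Nefm-002 and the gene count of Nefl are uncertain. Whether the overlap has a part in these values was not tested.

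Tuba1a-002, a processed transcript whose identifier is not in GENCODE M21, took the remaining estimates of Tuba1a and varied widely. It had 23653, 66011 and 16348 estimated counts in LC1_KO brains and 14988, 25118 and 25855 in LC1_WT brains. It had 32404, 24196 and 51045 in RKI_homozygous brains and 52488, 30598 and 44303 in RKI_WT brains. The groups overlapped in both lines, and LC1_KO held the highest library of the 12 and LC1_WT the lowest.

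**Figure D3:**
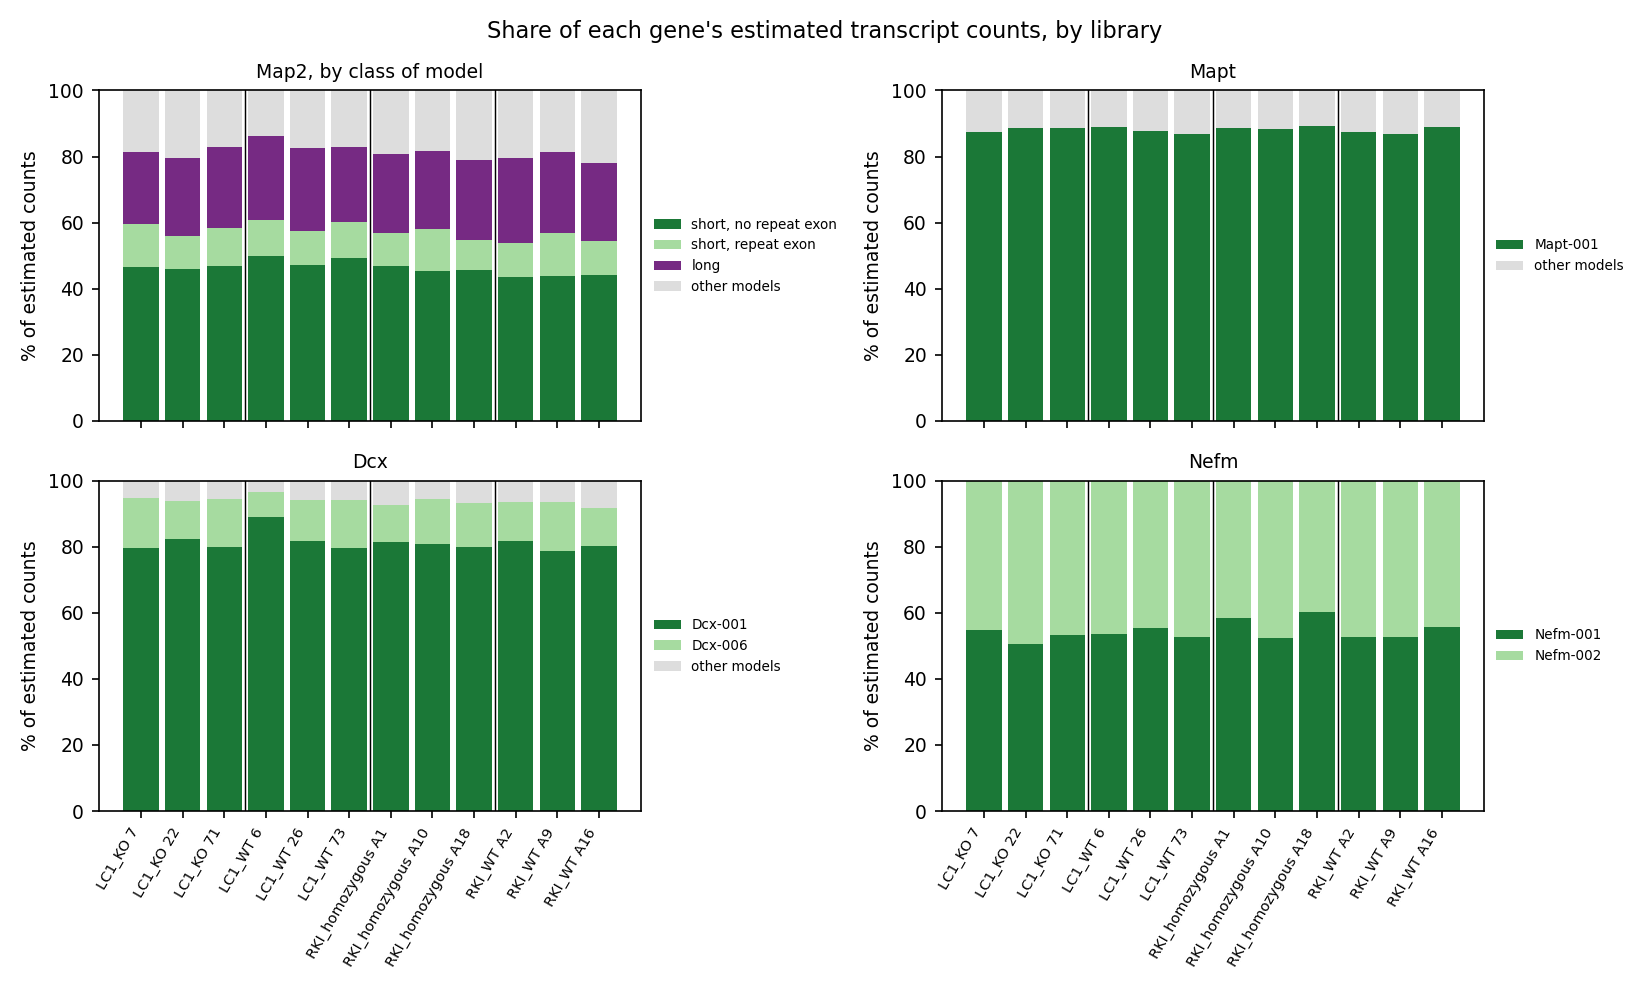
Percent of a gene's estimated transcript counts taken by each isoform or class (y axis) in each of the 12 libraries (x axis), for Map2, Mapt, Dcx and Nefm. Short Map2 forms without the repeat exon take 43.6% to 50%, Mapt-001 86.7% to 89.3%, Dcx-001 78.8% to 89% and Nefm-001 50.6% to 60.1%.

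Deletion of LC1 was compared first, which asks whether loss of the element changes gene expression in the brain. None of the 10 genes passed. With edgeR's quasi-likelihood test over 16002 genes, log2 fold changes in LC1_KO against LC1_WT ran from -0.15 for Nefl to 0.08 for Dcx, with standard errors of 0.061 to 0.099, and every adjusted p was 1. The number of genes called among all tested was 0 (0%), with 334 at an unadjusted p under 0.05; DESeq2 and limma-voom also called 0, with 183 and 331. Nefl averaged 57.8 ± 2.28 CPM in LC1_KO and 64.1 ± 6.9 CPM in LC1_WT brains (SD, n = 3 each; log2 fold change -0.15, edgeR 95% interval -0.34 to 0.03). Tubb2b averaged 1841 ± 84.3 CPM in LC1_KO and 1981 ± 249 CPM in LC1_WT brains (log2 fold change -0.11, interval -0.27 to 0.06). Dcx averaged 1579 ± 68.6 CPM in LC1_KO and 1492 ± 104 CPM in LC1_WT brains (0.08, interval -0.07 to 0.23). Over the 10 genes 3 values were positive and 7 negative, with a median of -0.04, against a median of -0.003 over all genes tested. Taken 1 gene at a time, the 95% intervals of this fit reached from 0.792-fold to 1.18-fold, which is not a joint bound on the 10.

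Leaving out LC1_WT 6 moved these values toward 0 or across it. Without it 6 of the 10 were positive and 4 negative, from -0.06 to 0.07; Tubb3 stood at 0.07 and Tuba1a at 0.05, against -0.03 and -0.05 with it. That library was the highest of the 12 for 5 of the genes and the lowest for 2. In log2 CPM, the 4 genes with models under 2000 bases (Tubb3, Tubb2b, Tuba1a and Stmn2) lay on average 0.23 above their means there, and the 3 over 10000 bases (Dcx, Map1b and Map2) 0.11 below (a deviation of -0.11). Nefl, Nefm and Mapt, with models of 3384, 5789 and 7541 bases, lay 0.27, 0.09 and 0.14 above theirs. Summed markers of meninges were 926 to 1196 CPM in LC1_KO and 1087 to 1301 CPM in LC1_WT brains, and those of choroid plexus 612 to 710.5 CPM in LC1_KO and 662 to 865 CPM in LC1_WT brains, with the highest value of each in LC1_WT 6. Microglia and macrophage markers were negative for 7 of 7 genes (median -0.19), also with their highest sum in LC1_WT 6. Those of endothelium and pericytes were negative for 7 of 7 (median -0.06) and those of meninges for 7 of 7 (median -0.21). Erythroid blood markers were negative for 6 of 8 (median -0.08) and those of oligodendrocyte precursors for 4 of 5 (median -0.05). Markers of peripheral ganglia and skin were negative for 2 of 4 (median 0.06). Positive values were found for 7 of 10 neuron markers (median 0.01) and 8 of 12 markers of radial glia and dividing progenitors (median 0.06). None of these markers was called. The part of these markers in the result was not tested. In the authors' deposited table the smallest unadjusted p values among the 10 were 0.0287 for Tubb2b, 0.0427 for Dcx and 0.0492 for Nefl, each with an adjusted p of 0.937.

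**Figure D4:**
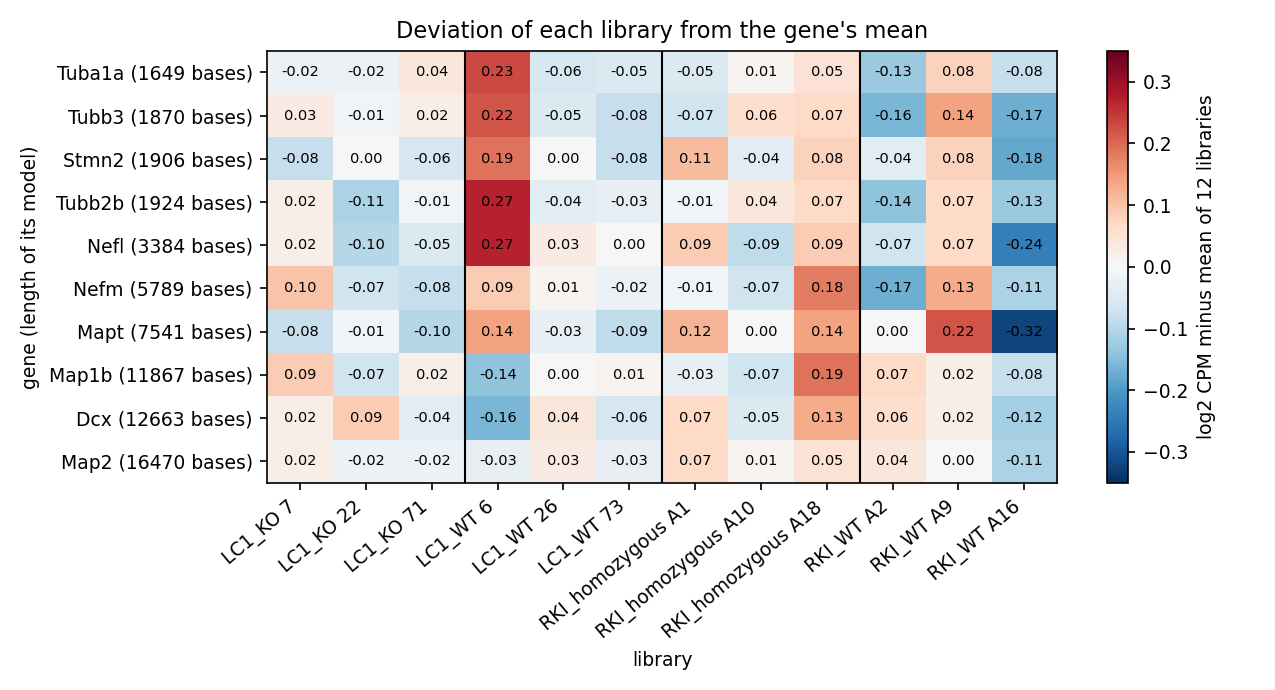
Log2 CPM of each gene (rows, ordered by the length of the gene model) in each library (columns) minus the mean of the 12 libraries. LC1_WT 6 is high for the short models (0.27 for Tubb2b), for Nefl (0.27) and for Mapt (0.14), and low for Dcx (-0.16) and Map1b (-0.14). RKI_WT A16 is low for all 10 genes, down to -0.32 for Mapt.

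Homozygous knock-in of the variant gave small positive values within the error. All 10 genes had positive log2 fold changes in RKI_homozygous against RKI_WT, from 0.03 for Map1b to 0.11 for Mapt and Nefl, with every edgeR adjusted p at 1 and a smallest unadjusted p of 0.21. The genes called over all tested were again 0 (0%), with 307 at an unadjusted p under 0.05; DESeq2 and limma-voom called 0, with 177 and 311. Mapt averaged 1737 ± 85.7 CPM in RKI_homozygous and 1619.5 ± 299 CPM in RKI_WT brains (SD, n = 3 each; edgeR 95% interval -0.1 to 0.32). Tubb2b averaged 1931 ± 55.8 CPM in RKI_homozygous and 1801 ± 155 CPM in RKI_WT brains (0.1, interval -0.06 to 0.27). Map2 averaged 1967 ± 45.4 CPM in RKI_homozygous and 1878 ± 104 CPM in RKI_WT brains (0.07, interval -0.06 to 0.2). The median over the 10 was 0.08, against 0.001 over all genes tested. Taken 1 gene at a time, the 95% intervals of this fit reached from 0.91-fold to 1.25-fold, again not a joint bound.

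RKI_WT A9 and RKI_homozygous A18 lay above the mean of the 12 libraries for 10 of the 10 genes. RKI_WT A16 lay below that mean for 10 of the 10 and was the lowest library for 5. Without it 7 of the 10 values were positive and 3 negative, from -0.03 for Map1b to 0.09 for Tubb2b, and Mapt stood at -0.02 against 0.11 with it. Leaving out either female of the line raised all 10 values. Without RKI_homozygous A10 or RKI_WT A9 the remaining female sets the sex term alone, so the comparison rests on the 4 males, and all 10 values were positive, from 0.09 for Map1b to 0.28 for Mapt, with Nefl at 0.24 and Stmn2 at 0.2. Of the 10, 4 then had an unadjusted p under 0.05, the smallest being 0.00829 without A10 and 0.00917 without A9, both for Mapt, and none passed (smallest edgeR adjusted p 0.525 and 0.534).

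Markers of other cells moved beside these values. Neuron markers were positive for 10 of 10 genes (median log2 fold change 0.06), markers of radial glia and dividing progenitors negative for 10 of 12 (median -0.14) and those of choroid plexus negative for 5 of 5 (median -0.18), with 0 called. Erythroid blood markers were positive for 7 of 8 (median 0.09) and those of microglia and macrophages for 5 of 7 (median 0.08). Medians were 0.01 for oligodendrocyte precursors, -0.01 for endothelium and pericytes, -0.02 for meninges and -0.16 for peripheral ganglia and skin. In LC1 choroid plexus markers were negative for 5 of 5 too (median -0.15). Summed neuron markers were 2907 to 3094 CPM in RKI_homozygous and 2578 to 3167 CPM in RKI_WT brains. Summed markers of radial glia and dividing progenitors were 1719 to 1766 CPM in RKI_homozygous and 1607 to 2188 CPM in RKI_WT brains, with the ends of both RKI_WT ranges set by A16 and A9. Summed choroid plexus markers were 695 to 723 CPM in RKI_homozygous and 744 to 831 CPM in RKI_WT brains, without overlap. The sums of all other marker lists overlapped in RKI. Of all single genes tested, 5.67% did not overlap by CPM in RKI. The part of these markers in the result was not tested. In the authors' deposited table, with its sign turned to mutant minus wild type, all 10 were positive as well, from 0.03 to 0.11, with a smallest adjusted p of 0.997; that table rests on the same libraries.

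The CPM of the mutant and wild-type groups overlapped for all 10 genes in both lines. Over all genes tested, groups did not overlap for 7.16% in LC1 and 5.67% in RKI. The difference between the RKI and LC1 effects was tested in the same fit and passed for 0 of the 10 genes and 0 of all genes (0%; 388 at an unadjusted p under 0.05 by edgeR, 238 by DESeq2 and 382 by limma-voom, which also called 0). It was largest for Nefl, at 0.26 (edgeR 95% interval from just under 0 to 0.52, unadjusted p = 0.051, adjusted p = 1). Without LC1_WT 6 the Nefl value was 0.16, and without RKI_homozygous A10 it was 0.39 (unadjusted p = 0.00382; smallest edgeR adjusted p of the 10 0.832).

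**Figure D5:**
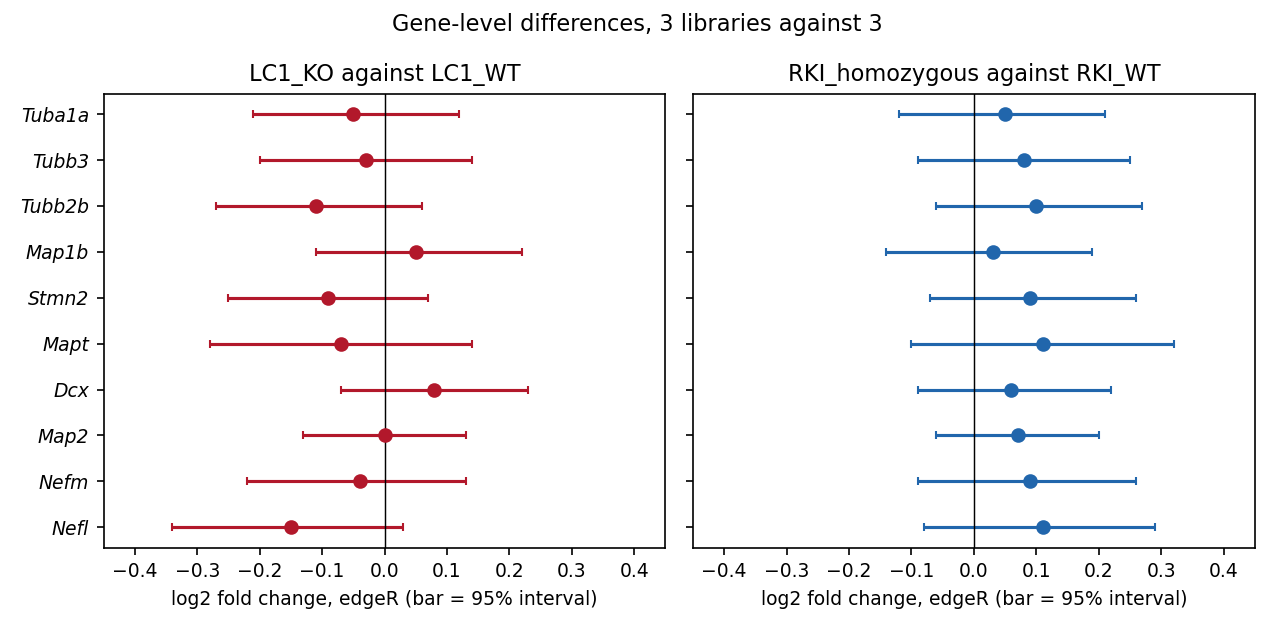
Log2 fold change of each gene with its 95% interval from edgeR, LC1_KO against LC1_WT on the left and RKI_homozygous against RKI_WT on the right. Every interval includes 0; the values run from -0.15 to 0.08 on the left and from 0.03 to 0.11 on the right.

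Between the wild types of the lines, RKI_WT against LC1_WT with sex in the fit, 0 of the 10 genes passed, beside 2 of all genes tested (0.0125%). Log2 fold changes ran from -0.17 for Nefl to 0.06 for Mapt, and none of the 10 had an unadjusted p under 0.05. Nefl and Mapt moved with the libraries of the RKI females, which set the sex term: without RKI_WT A9 Nefl stood at -0.44 and Mapt at -0.28, and without RKI_homozygous A10 at -0.03 and 0.23. All 10 values were negative without RKI_WT A9, with a smallest unadjusted p of 0.00633 (Nefl; smallest edgeR adjusted p of the 10 0.978).

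At the transcript level 42 isoforms of the 10 genes were tested with edgeR among 47772 transcripts. None of the 42 passed in LC1 (0% of all transcripts, 1418 at an unadjusted p under 0.05, 2 of the 42 among them), in RKI (0%, with 1172 and 0) or between the wild types (0.00209%, with 1781 and 3). The 15 isoforms with at least 5% of their gene's estimated counts had log2 fold changes of -0.14 to 0.46 in LC1 and -0.21 to 0.14 in RKI. Both the 0.46 and the -0.21 belong to Tuba1a-002. The smallest p in LC1 was that of Map2-008, a partial model of 2195 bases outside that set, which is named here because of its value. Map2-008 had 216, 297 and 203 estimated counts in LC1_KO brains and 103, 112 and 98 in LC1_WT brains (log2 fold change 1.06 ± 0.16 SE, unadjusted p = 9.58e-05, edgeR adjusted p = 0.559). It had 263, 179 and 251 in RKI_homozygous brains and 308, 214 and 346 in RKI_WT brains, so the 3 LC1_WT libraries were the lowest of the 12. It held 0.672% ± 0.24 of the estimated counts of Map2 (SD, n = 12).

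Isoform usage, the level of a transcript relative to its gene, was tested with edgeR's diffSpliceDGE for 37 isoforms of these genes. None of the 37 passed in LC1 or in RKI, where 0.173% and 0.111% of all transcripts tested passed. None of the 37 had an unadjusted p under 0.05 either, against 1298 in LC1 and 1174 in RKI of all 40562 transcripts tested. Between the wild types 0.222% of all transcripts passed, and 1 of the 37 isoforms, Map2-003, a short Map2 model. Map2-003 had 273, 0 and 236 estimated counts in RKI_WT brains and 123, 412 and 30.5 in LC1_WT brains. The mutants had 124, 0 and 163 (RKI_homozygous) and 14.6, 844 and 121 (LC1_KO). Both libraries at 0 are the females of the RKI line. The fitted log2 difference was -10.45 (adjusted p = 1.02e-05), which rests on these zeros and on the sex term: without that term it was -0.46 and did not pass.

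Of 8 further lists of cytoskeletal genes, 154 of 160 genes were measured. Over them edgeR called 0 in LC1, 0 in RKI and 0 between the wild types, with 0, 2 and 5 at an unadjusted p under 0.05. Of all 16002 genes tested it called 0, 0 and 2, with 334, 307 and 623 at an unadjusted p under 0.05. Signs were mixed in LC1, with 85 values positive and 69 negative, while in RKI 113 were positive and 41 negative. Over all genes tested, 48.6% were positive in LC1 and 50.6% in RKI. The part of RKI_WT A16, the library with the lowest summed neuron markers, in these signs was not tested. Values in RKI were positive for 18 of 20 growth cone and actin genes (median 0.06) and 19 of 23 motors and dynein regulators (median 0.04). The 3 other stathmins were positive in 3 of 3 in RKI (median 0.11) and negative in 3 of 3 in LC1 (median -0.13), while the other tubulins were at 6 positive of 13 in RKI (median -0.08). The smallest p in RKI belonged to Tppp, a tubulin polymerisation-promoting protein, with a log2 fold change of 0.23 ± 0.086 SE (unadjusted p = 0.0172, edgeR adjusted p = 1), and to Nova1, a neuronal splicing regulator, with 0.2 ± 0.083 SE (unadjusted p = 0.03, edgeR adjusted p = 1).

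The remaining lists held values of both signs in each line. Other microtubule-associated proteins were positive for 22 of 33 genes in LC1 and 24 of 33 in RKI, and genes of tubulin folding, severing and modification for 14 of 27 and 19 of 27. Other intermediate filament genes were positive for 6 of 9 and 3 of 9, and kinases and splicing regulators of tau and MAP2 for 14 of 26 and 21 of 26. No gene of these lists passed in either line.

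The genes whose pattern over the 12 libraries was most like the mean of the 10, among 10309 genes with at least 10 CPM, were Thra, Klhl23, Sept5, Mapk10 and Uchl1, with Pearson r of 0.949, 0.946, 0.94, 0.94 and 0.934. After group means were subtracted they were Dtx4, Fmod, Sept5, Mapk10 and Crmp1, with r of 0.97, 0.969, 0.967, 0.967 and 0.964. These are descriptions over 12 libraries, which share their depth, scaling and the libraries that stand apart.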

How the data were processed

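The authors deposited whole-number counts per gene, RPKM per gene and per transcript, and estimated counts per transcript, per the file headers, for 12 E14.5 mouse brain libraries; the tools listed, per the submitters' processing notes, are edgeR, limma, featureCounts 1.4.5, STAR 2.0.4b and Subread, with no roles. Not given in the sources used here: build, annotation, strand setting and transcript estimator. The authors' deposited comparison tables give a log2 fold change and p-values, with RKI as wild type minus homozygous, so its sign was turned.

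Repeated rows (574 gene, 1298 transcript), identical to the row they repeat, were dropped. Counts, and estimated counts after rounding, were tested with edgeR 4.0.16 in R 4.3.3 (TMM, filterByExpr, robust quasi-likelihood, 4 group means and sex, 7 residual degrees of freedom, Benjamini-Hochberg over all features, threshold 0.05); isoform usage with diffSpliceDGE. DESeq2 1.42.0 and limma-voom (limma 3.58.1) were alternatives. The scripts were tested on simulated data. CPM is TMM-scaled; correlations and deviations used log2 CPM with a prior count of 2. No uncertainty of the transcript estimates entered a test. Each library is 1 embryo. GENCODE M21 (GRCm38) gave models and sequences, by identifier.

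The 10 genes and all lists were chosen with earlier results of these data known. Named are the 10 genes, isoforms with at least 5% of the estimated counts, and of each other list the genes past the threshold or those of smallest p. Isoform lengths, exons and strand come from the annotation, not from reads. Some sequences are not reported here.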

Additional observations from a re-analysis of the deposited data

How the results depend on the processing

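None of the 10 genes passed in LC1, RKI or the difference under any alternative run (DESeq2, limma-voom, RLE scaling, library totals, no filter, no sex term, only the libraries compared, each library left out). Without the filter on low counts the genes called were 4 in LC1, 26 in RKI, 17 for the difference and 28 between wild types, and 2 transcripts in RKI. Without the sex term RKI had 1 transcript and 77 usage calls, and Mapt between wild types was -0.02. With only the libraries compared, 0 transcripts were called between wild types. With library totals alone Map2 in LC1 was -0.00052. Leaving out each library gave 0 to 2 genes in RKI, 0 to 1 for the difference and 1 to 4 between wild types, 0 to 1, 0 to 7 and 1 to 46 transcripts in LC1, RKI and between wild types (46 without RKI_homozygous A10), and 27 to 47 and 38 to 89 usage calls in RKI and between wild types; the cause was not tested. Leaving out each library, log2 fold changes that crossed 0 ranged in LC1 from -0.01 to 0.03 (Map2), -0.12 to 0.00017 (Mapt), -0.16 to 0.0016 (Tubb2b), -0.08 to 0.07 (Tubb3) and -0.09 to 0.05 (Tuba1a), in RKI from -0.02 to 0.28 (Mapt), -0.01 to 0.23 (Nefm), -0.0033 to 0.13 (Dcx) and -0.05 to 0.09 (Map1b), for the difference from -0.09 to 0.05 (Dcx), -0.11 to 0.03 (Map1b) and -0.01 to 0.15 (Tuba1a), and between wild types from -0.28 to 0.23 (Mapt). No paired analysis was possible because the groups share no replicate numbers and the labels do not say which embryos were litter mates. With 3 libraries a group the gene intervals reach 0.34 on the log2 scale in LC1 (-0.34). Over all transcripts tested the estimates are far noisier, with a common biological coefficient of variation of 56%, against 6.94% for genes. In LC1 the standard errors of the main isoforms were nearer those of their genes, as for Dcx-001 (0.063, gene 0.072) and Nefm-001 (0.11, gene 0.083). They were larger for Dcx-006 (0.24) and Tuba1a-002 (0.37).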
